A study of Homo sapiens with 12 samples.

Results

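The mitochondrial genome is a small circular DNA inside the organelle, and its RNAs were followed here through loss of SMARCA4 and a 2-drug treatment in lymphoma cells. Its genes were taken as the rows whose symbol starts with MT-, which gave 37 of the 13820 rows of the count table: 13 protein-coding RNAs, 2 ribosomal RNAs and 22 tRNAs. All 37 passed the filter on low counts. By textbook gene maps, 28 of them are read from heavy-strand transcription and 9, MT-ND6 and 8 tRNAs, from light-strand transcription.

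Z-138 is an established human line of mantle cell lymphoma, a B-cell cancer. There were 4 groups of 3 libraries each: SMARCA4 shRNA with 3 µM ibrutinib plus 3 µM venetoclax, control shRNA with the same drugs, SMARCA4 shRNA with DMSO, and control shRNA with DMSO. Doxycycline was in the medium of every group, the controls included. SMARCA4 is a catalytic subunit of the SWI/SNF chromatin remodelling complexes, ibrutinib inhibits the kinase BTK, and venetoclax inhibits the survival protein BCL2. The series title names resistance to this drug pair as the question. Each shRNA was used in 1 line, the number of clones is not given in the sources used here, and nothing in the labels tells whether the 3 libraries of a group came from independent cultures. The spread behind each p-value may therefore be technical. In bulk RNA, fewer cells of a kind and less RNA per cell cannot be told apart.

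Each strand of the mitochondrial genome is transcribed into a long precursor by the polymerase POLRMT with TFAM and TFB2M, and the tRNAs that lie between the other genes are cut out to release them. The protein-coding RNAs encode subunits of respiratory complexes I, III and IV and of ATP synthase, and all other subunits come from the nucleus. MT-ND6 is the only protein-coding gene of the light strand, and its mRNA is known to carry no regular poly(A) tail. Doxycycline is also known to inhibit the mitochondrial ribosome. Since every group received it, any part it had in the levels cannot be told apart.

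Libraries were made with QuantSeq, which primes on A-rich stretches and reads the 3' end of RNA. The strand setting of the counting is not given in the sources used here, so reads of a gene and of a precursor from the opposite strand cannot be told apart. This bears on MT-ND6 and on all 8 light-strand tRNAs, and on the heavy-strand rows as well. MT-ATP8 with MT-ATP6, and MT-ND4L with MT-ND4, overlap, and some nuclear copies of mitochondrial genes are near-identical to them (78.8% to 99.1% identity over 15 copies), so the counts of such rows are uncertain. Levels are given in CPM, counts scaled by library size and TMM factor, and are compared between groups, not between genes.

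Totals ran from 7279503 to 22528537 counts per library, and the mitochondrial rows took 520630 to 1817140 of them. The deepest library was SMARCA4 shRNA DMSO replicate 3. SMARCA4 itself had 167, 174 and 184 CPM in knockdown cells under drug, against 588, 599.5 and 642 CPM in control cells under drug. It had 177, 174 and 159 CPM in knockdown cells with DMSO, against 577, 599 and 555 CPM in control cells with DMSO, log2 changes of -1.80 ± 0.06 and -1.77 ± 0.06 with no overlap. In 1 of the 12 columns the name gave no treatment, and it was taken as control shRNA drug replicate 1 because no other column named that sample. B-cell markers (6 of 7 analysed, CD22 was not) summed to 1350–1440 CPM in knockdown and 1946–2178 CPM in control cells under drug, and to 1403–1412 CPM in knockdown and 1912–2089 CPM in control cells with DMSO. Of the mantle cell lymphoma markers, CCND1 was at 3290–3972 CPM in knockdown and 4339–4651 CPM in control cells under drug, and at 3422–3626 and 4102–4889 CPM with DMSO. SOX11 moved the other way, at 625–661 CPM in knockdown and 361–375 CPM in control cells under drug, and at 623–649.8 and 321–346 CPM with DMSO. Their sums were 3915–4633 and 4700–5026 CPM under drug, and 4049–4264 and 4422–5235 CPM with DMSO, in knockdown and control cells. T and NK cell markers (3 of 7 analysed) summed to 1.75–3.54 CPM in knockdown and 17.5–21.4 CPM in control libraries, COL1A1, the 1 of 7 fibroblast and epithelial markers analysed, stood at 14.2–15.1 and 19.6–26 CPM, and 0 of 5 monocyte markers were analysed. These markers moved with the knockdown, and their part in the results was not tested.

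The sequences are shown because priming depends on runs of A and because the strands differ in base make-up. They are reference sequences of GENCODE release 29, matched by gene identifier for 37 of 37 members, read from the mitochondrial chromosome (M), and written 5′ to 3′ as DNA. The files used hg19, so no positions are given. Capitals mark the longest run of A in the stretch printed. The last 60 bases of the MT-ND6 reference sequence, from the light strand, are set beside those of 4 heavy-strand genes that carry the main results. They are the ends of the annotated genes. Where the RNAs ended or were primed in these libraries was not determined.
MT-ND6: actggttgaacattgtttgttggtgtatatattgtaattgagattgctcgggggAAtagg
MT-ND5: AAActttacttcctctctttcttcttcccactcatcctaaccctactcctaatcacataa
MT-ND1: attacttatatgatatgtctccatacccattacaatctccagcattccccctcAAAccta
MT-CO1: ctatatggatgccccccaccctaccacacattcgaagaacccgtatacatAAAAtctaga
MT-ND4: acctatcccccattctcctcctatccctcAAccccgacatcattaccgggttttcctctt
Over its 525 annotated bases MT-ND6 was 19.6% A and 35.6% G with a longest A run of 3. The 12 heavy-strand protein-coding sequences had medians of 29.1% A and 11.2% G and longest A runs of 3 to 8 (median 5.5).

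All 8 light-strand tRNAs, those that fell with knockdown and those that did not, are printed whole. The genes of the first 4 follow each other on the genome with no other gene between them.
MT-TA: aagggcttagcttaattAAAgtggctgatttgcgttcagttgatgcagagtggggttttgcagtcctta
MT-TN: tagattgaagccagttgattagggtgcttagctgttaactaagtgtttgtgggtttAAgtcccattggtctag
MT-TC: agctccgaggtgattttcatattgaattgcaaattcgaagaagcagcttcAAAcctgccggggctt
MT-TY: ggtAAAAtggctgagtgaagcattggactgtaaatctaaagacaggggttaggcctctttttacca
MT-TQ: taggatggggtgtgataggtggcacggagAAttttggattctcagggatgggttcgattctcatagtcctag
MT-TS1: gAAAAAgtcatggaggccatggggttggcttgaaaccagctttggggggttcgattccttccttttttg
MT-TE: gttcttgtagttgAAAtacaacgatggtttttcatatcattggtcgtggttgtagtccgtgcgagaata
MT-TP: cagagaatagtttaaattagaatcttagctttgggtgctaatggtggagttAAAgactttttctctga
A made up a median of 22.6% of the 8 light-strand tRNAs and 36.4% of the 14 heavy-strand tRNAs.

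Knockdown of SMARCA4 lowered a part of the mitochondrial RNAs, foremost MT-ND6, MT-ND5, MT-ND1, MT-RNR1 and several tRNAs. In all knockdown results, a fall or rise under drug compares knockdown with control cells, both given the drugs. In DMSO 14 of the 37 members fell and 0 rose, and under drug 19 fell and 0 rose (edgeR quasi-likelihood test, Benjamini-Hochberg adjusted p under 0.05 over all 12602 rows). Of all rows tested, 16.2% fell and 15.1% rose with knockdown in DMSO, and 16.3% fell and 14.8% rose under drug. At an unadjusted p under 0.05, 1 member was higher in each setting, MT-ND4 in DMSO and MT-TS1 under drug; limma-voom called MT-ND4 as higher and DESeq2 called 0 as higher. Knockdown and control libraries did not overlap, with knockdown lower, for 15 members in DMSO and 16 under drug, and with knockdown higher for 1 member each, beside 21.5% and 21.2% of all rows below and 21.4% and 19.8% above. The median member stood at -0.16 on the log2 scale in DMSO and -0.44 under drug, beside 0.0038 and 0.0018 over all rows. These splits depend on the scaling: with library totals as scaling, 1 member rose and 13 fell in DMSO, and 2 rose and 15 fell under drug. Of all 12602 rows, that scaling had 2063 rising and 1854 falling in DMSO, and 2691 rising and 1447 falling under drug. The 2 comparisons share no library but use the same shRNAs. In both, 12 members fell, 85.7% of those that fell in DMSO and 63.2% of those that fell under drug. They were MT-ND1, MT-ND4L, MT-ND5, MT-ND6, MT-RNR1 and the tRNAs MT-TF, MT-TL1, MT-TI, MT-TM, MT-TN, MT-TC and MT-TY. The overlap over all rows was not counted, so whether the members overlapped more than other genes was not tested.

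**Figure D1:**
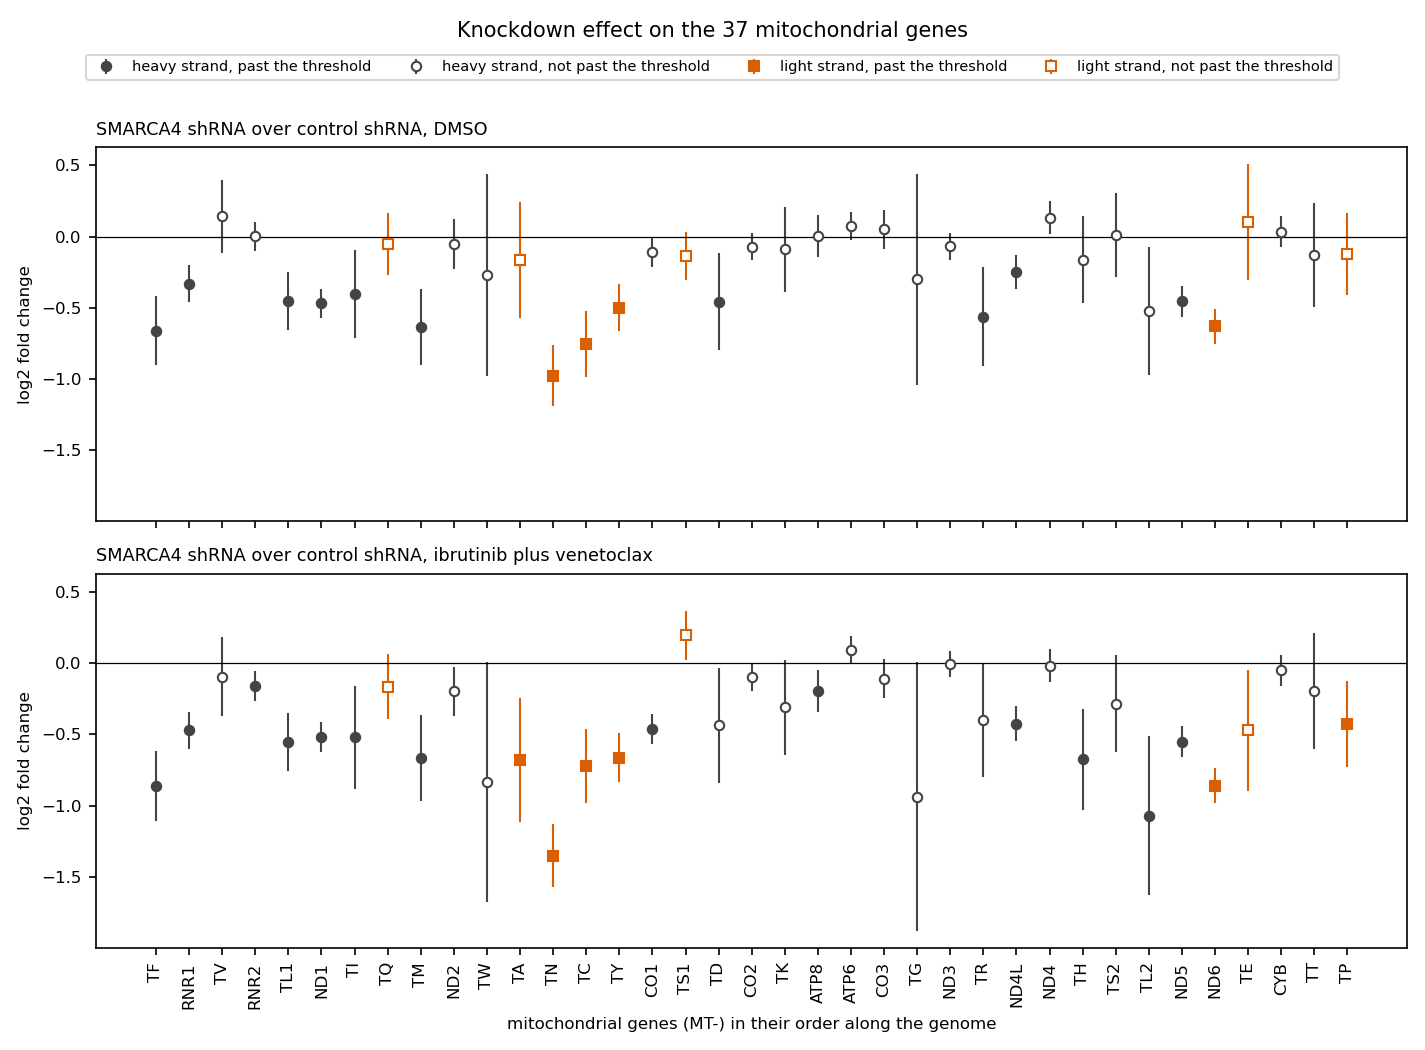
Log2 fold change of SMARCA4 shRNA over control shRNA (y axis) for the 37 mitochondrial genes in genome order (x axis), in DMSO and under drug; bars are 95% intervals, squares are light-strand genes, filled symbols are past the threshold. MT-TN at -0.98 and -1.35 and MT-ND6 at -0.63 and -0.86 lie well below zero, while MT-ATP6, MT-ND3 and MT-CYB lie near it.

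The summed share of mitochondrial RNA overlapped between groups, while its make-up shifted. Mitochondrial rows took 7.34% ± 0.43 of counts in knockdown cells under drug and 7.90% ± 0.37 in control cells under drug, and 7.67% ± 0.36 in knockdown cells and 7.92% ± 0.22 in control cells with DMSO (SD, n = 3 each), and the ranges of each pair overlapped. The log2 ratio of MT-ND6 to the summed heavy-strand mRNAs was -7.30 ± 0.12 in knockdown and -6.55 ± 0.04 in control cells under drug, and -6.99 ± 0.08 in knockdown and -6.36 ± 0.10 in control cells with DMSO (SD, n = 3 each), with no overlap of libraries within either pair. tRNA counts were 0.260% ± 0.032 of the total in knockdown and 0.376% ± 0.077 in control cells under drug, and 0.338% ± 0.056 in knockdown and 0.458% ± 0.045 in control cells with DMSO. In these shares, control shRNA drug replicate 3 (0.462%) and SMARCA4 shRNA DMSO replicate 3 (0.403%) stood above the other libraries of their groups. Cytosolic ribosomal RNA rows, which poly(A) priming also picks up, took 8.36% ± 1.01 of counts in knockdown and 10.6% ± 0.3 in control cells under drug, and 10.5% ± 0.5 in knockdown and 9.15% ± 0.31 in control cells with DMSO; their part in the results was not tested.

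**Figure D2:**
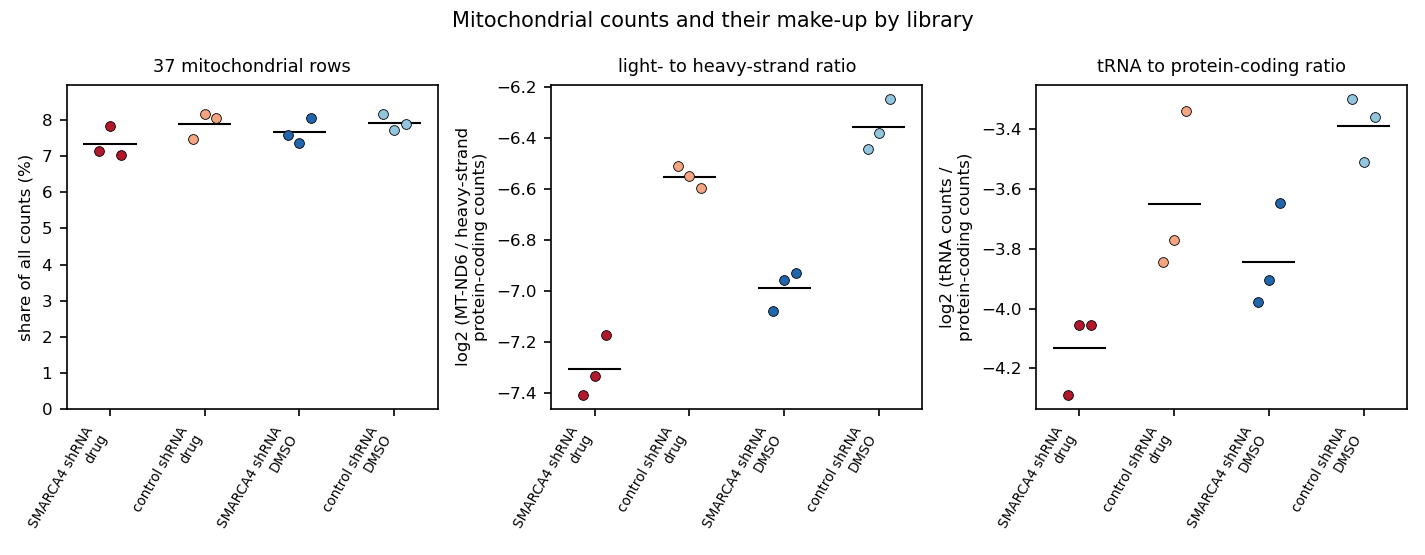
Share of counts in the 37 mitochondrial rows (left, %), log2 ratio of MT-ND6 to heavy-strand mRNA counts (middle) and log2 ratio of tRNA to protein-coding counts (right), 1 point per library, bars at the mean of 3. The left panel spans 7.02% to 8.16% with overlapping groups, while MT-ND6 steps down in both knockdown groups.

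Among the complex I subunits, MT-ND6, which encodes a membrane-arm subunit, fell furthest. It had 256, 297 and 280.3 CPM in knockdown cells under drug, against 495, 521 and 499.6 CPM in control cells under drug. With DMSO it had 352, 364 and 409.9 CPM in knockdown cells, against 571, 559 and 616 CPM in control cells. Every knockdown library lay below every control library, at -0.86 ± 0.06 log2 under drug (adjusted p = 5.4e-13, edgeR; 55.1% of control) and -0.63 ± 0.06 in DMSO (adjusted p = 4.1e-10; 64.6% of control). MT-ND6 kept its call in each of the 22 alternative fits of both comparisons.

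MT-ND5, the heavy-strand gene that abuts MT-ND6 end to end and encodes another membrane-arm subunit, had 1392, 1609 and 1558 CPM in knockdown cells under drug, against 2142, 2334 and 2214 CPM in control cells under drug. With DMSO it had 1472, 1554 and 1652 CPM in knockdown cells, against 2107, 2154 and 2146 CPM in control cells. The groups did not overlap, with log2 changes of -0.55 ± 0.05 (adjusted p = 1.1e-09, edgeR) and -0.45 ± 0.05 (adjusted p = 5.6e-08). MT-ND1, the subunit next to the quinone site and the first mRNA after the ribosomal RNAs, fell alike: it had 712, 754 and 736 CPM in knockdown against 990.1, 1075 and 1094 CPM in control cells under drug, and 665, 669 and 726 CPM in knockdown against 963, 925 and 964 CPM in control cells with DMSO. Its log2 changes were -0.52 ± 0.05 under drug and -0.47 ± 0.05 in DMSO (adjusted p = 1.2e-09 and 9.6e-09, edgeR).

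The remaining complex I mRNAs behaved unevenly. MT-ND4L fell by 0.43 log2 under drug and by 0.25 in DMSO (adjusted p = 1.2e-06 and 0.0013, edgeR), while MT-ND4, with which it overlaps, stood at -0.02 ± 0.06 and 0.13 ± 0.06 (adjusted p = 0.84 and 0.077). MT-ND4 with DMSO had 5573, 5342 and 6062 CPM in knockdown cells, all above the 5269, 5103 and 5115 CPM in control cells. MT-ND4 passed the threshold as higher in DMSO in 7 of the alternatives, among them library totals (adjusted p = 0.034) and limma-voom (0.033). MT-ND3 stood at -0.01 and -0.07 and MT-ND2 at -0.20 and -0.05 under drug and in DMSO, none past the threshold in edgeR. For knockdown under drug, limma-voom called MT-ND2 as lower on all libraries. SMARCA4 shRNA drug replicate 2 had the highest MT-ND2 of its group at 5009.9 CPM. Without it, MT-ND2 was at -0.35 under drug (adjusted p = 0.0012, edgeR).

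**Figure D3:**
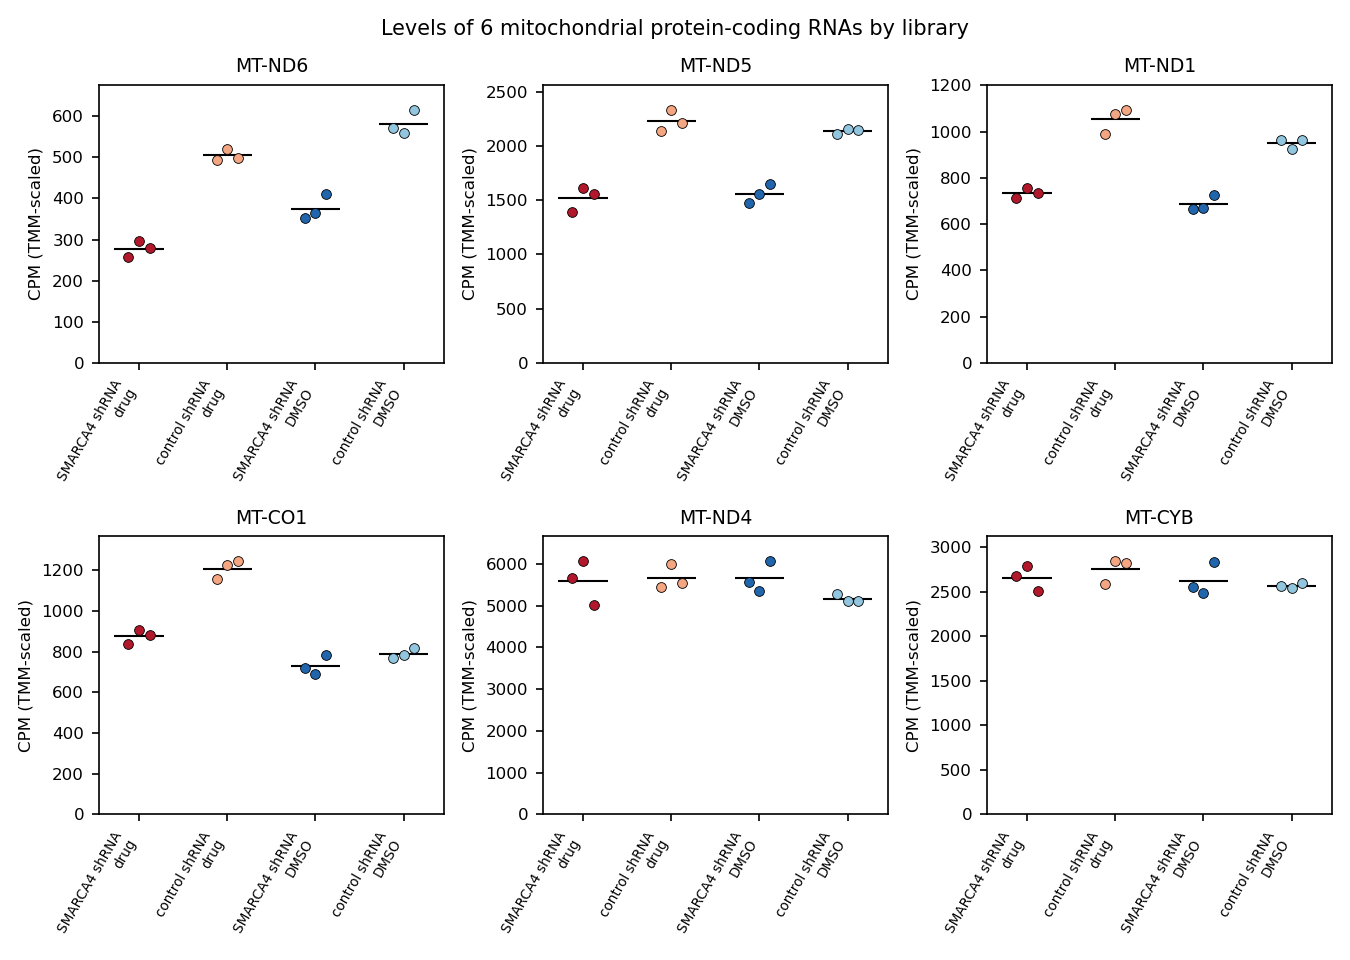
CPM (y axis, from 0) of 6 mitochondrial mRNAs in each library by group, with bars at the mean of 3. MT-ND6, MT-ND5 and MT-ND1 are lower in both knockdown groups, MT-CO1 is highest in control cells under drug (1156 to 1245), and MT-ND4 and MT-CYB overlap between most groups.

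Of the 3 complex IV mRNAs, MT-CO1 encodes the catalytic subunit. Under drug it was lower in knockdown than in control cells, at -0.46 ± 0.05 log2 (adjusted p = 2.3e-08, edgeR). In DMSO it stood at -0.11 ± 0.05 (adjusted p = 0.11), with a 95% interval of -0.22 to -0.003; without the deepest library, SMARCA4 shRNA DMSO replicate 3, it was -0.16 (adjusted p = 0.041). MT-CO2, the copper subunit that takes electrons from cytochrome c, stood at -0.10 ± 0.05 under drug and -0.07 ± 0.05 in DMSO, neither past the threshold in edgeR. Under drug every knockdown library of MT-CO2 lay below every control library, and limma-voom called it as lower (adjusted p = 0.0496). MT-CO3 stood at -0.11 and 0.05, neither past the threshold, though it reached -0.22 (adjusted p = 0.0060) under drug without SMARCA4 shRNA drug replicate 2. MT-CYB, the 1 mitochondrial subunit of complex III, had 95% intervals of -0.16 to 0.06 under drug and -0.08 to 0.14 in DMSO. MT-ATP6, the proton-channel subunit of ATP synthase, stood at 0.09 and 0.07. Under drug, MT-ATP6 rose with library totals as scaling (0.18, adjusted p = 0.0029). MT-ATP8 fell under drug at -0.20 ± 0.07 (adjusted p = 0.037) and stood at 0.00 in DMSO, but its call was lost without SMARCA4 shRNA drug replicate 1 (adjusted p = 0.13), SMARCA4 shRNA drug replicate 3 (0.24) or control shRNA drug replicate 2 (0.30), and with library totals (0.22), DESeq2 (0.21) or a filter at 5 CPM (0.061).

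The small ribosomal RNA MT-RNR1 fell in both settings. It had 6339, 7608 and 7756 CPM in knockdown against 9107, 10133 and 10893 CPM in control cells under drug, and 7801, 7644 and 8529 CPM in knockdown against 10263, 9511 and 10364 CPM in control cells with DMSO. These values did not overlap and gave -0.47 ± 0.06 and -0.33 ± 0.06 log2 (adjusted p = 7.5e-07 and 0.00015, edgeR). The large ribosomal RNA MT-RNR2, separated from MT-RNR1 by MT-TV on the same precursor, stood at 0.00 ± 0.05 in DMSO. It fell under drug at -0.16 ± 0.05 (adjusted p = 0.014), a call lost without SMARCA4 shRNA drug replicate 1 (0.17) or control shRNA drug replicate 2 (0.11), with library totals as scaling (0.18) and in a fit of these groups alone (0.074). Some of its nuclear copies are close in sequence.

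Of the 22 tRNA rows, which in a poly(A)-primed library can hold precursor RNA and tRNA alike, 9 fell with knockdown in DMSO and 11 under drug. MT-TN, the tRNA for asparagine, changed most among the light-strand rows: it had 161, 233 and 192 CPM in knockdown against 414, 483 and 601 CPM in control cells under drug, and 281, 271 and 338 CPM in knockdown against 654, 513 and 589 CPM in control cells with DMSO. The groups lay far apart, at -1.35 ± 0.11 and -0.98 ± 0.10 log2 (adjusted p = 1.4e-11 and 7.4e-09, edgeR). Its neighbours MT-TC, for cysteine, and MT-TY, for tyrosine, fell by 0.73 and 0.66 log2 under drug and by 0.75 and 0.50 in DMSO (largest adjusted p = 4.0e-05). MT-TA, for alanine, on the other side of MT-TN, had 52.2, 71.1 and 87.3 CPM in knockdown against 66.3, 106 and 168 CPM in control cells under drug. Those libraries overlapped, and the fall of 0.68 (adjusted p = 0.014) was lost without control shRNA drug replicate 3 (0.33) or SMARCA4 shRNA drug replicate 1 (0.11) and with DESeq2 (0.19); in DMSO MT-TA stood at -0.16 ± 0.20, and at -0.53 (0.036) without SMARCA4 shRNA DMSO replicate 3.

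MT-TQ, for glutamine, stood at -0.17 ± 0.11 under drug and -0.05 ± 0.11 in DMSO, and fell under drug without SMARCA4 shRNA drug replicate 2 (adjusted p = 0.027). MT-TS1, a serine tRNA whose gene abuts the end of MT-CO1 on the opposite strand, had 285, 284 and 260.3 CPM in knockdown against 245, 239.6 and 241 CPM in control cells under drug. It was the only member with every knockdown library above every control library there, at 0.19 ± 0.08 (adjusted p = 0.078), and passed the threshold as higher in 5 alternatives, library totals among them (0.28, adjusted p = 0.011). In DMSO it stood at -0.14 ± 0.08, and fell (-0.28, adjusted p = 0.0060) without SMARCA4 shRNA DMSO replicate 3. MT-TE stood at -0.47 under drug and 0.10 in DMSO (adjusted p = 0.086 and 0.75). MT-TP fell under drug by 0.43 (adjusted p = 0.024), a call lost without SMARCA4 shRNA drug replicate 1 (0.095) or 3 (0.071) or control shRNA drug replicate 3 (0.44), and with DESeq2 (0.24), limma-voom (0.064) or library totals (0.069).

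**Figure D4:**
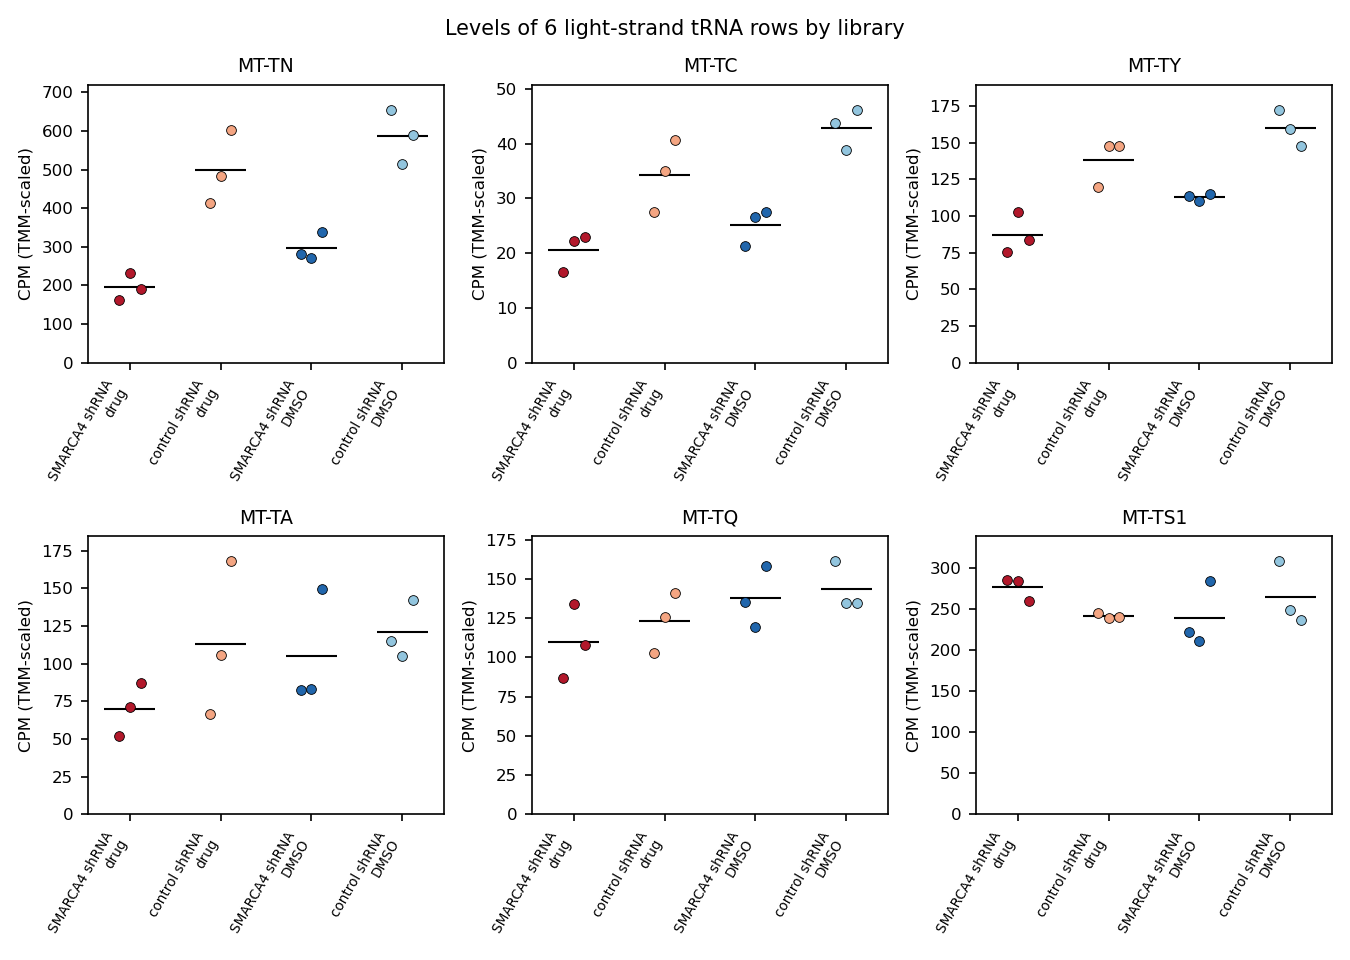
CPM (y axis, from 0) of 6 light-strand tRNA rows in each library by group, with bars at the mean of 3. MT-TN, MT-TC and MT-TY are lower in each knockdown group than in its control group, MT-TA and MT-TQ overlap, and MT-TS1 is slightly higher in knockdown cells under drug (260.3 to 285 against 239.6 to 245).

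Heavy-strand tRNAs fell too, 6 of 14 in each setting, beside 5 of 8 light-strand tRNAs under drug and 3 of 8 in DMSO. The log2 ratio of light- to heavy-strand tRNA counts was 0.11 higher in knockdown than in control cells under drug and 0.16 higher in DMSO, with overlapping libraries in both settings. MT-TF, for phenylalanine and the first gene of the heavy-strand precursor, had 461, 565 and 520.5 CPM in knockdown against 739.9, 827 and 1245 CPM in control cells under drug, and 676, 730.0 and 942 CPM in knockdown against 1376, 1084 and 1262 CPM in control cells with DMSO. It fell by 0.86 ± 0.12 and 0.66 ± 0.12 log2 (adjusted p = 1.3e-06 and 5.1e-05, edgeR). MT-TL1, a leucine tRNA, fell by 0.55 and 0.45, and MT-TM, for methionine, by 0.67 and 0.64, each without overlap of libraries. MT-TH and MT-TL2 fell under drug (by 0.68 and 1.07, adjusted p = 0.0030 and 0.0028), where MT-TL2 had 10 to 90 counts per library over the series. MT-TI, MT-TD and MT-TR fell with weaker support. MT-TR in DMSO (-0.56, adjusted p = 0.011) lost its call without control shRNA DMSO replicate 2 (0.11). MT-TD in DMSO (-0.46, 0.036) lost it without SMARCA4 shRNA DMSO replicate 1 or 2 or control shRNA DMSO replicate 1 or 3 (0.067 to 0.15) and with DESeq2 (0.052). MT-TI lost it in DMSO (-0.41, 0.041) without SMARCA4 shRNA DMSO replicate 1 or 2, control shRNA DMSO replicate 1 or 2, control shRNA drug replicate 2 or SMARCA4 shRNA drug replicate 1 (0.050 to 0.27), and under drug (-0.52, 0.024) without SMARCA4 shRNA drug replicate 3 or control shRNA drug replicate 1 or 2 (0.090 to 0.19). Both MT-TI calls were also lost with DESeq2 (0.20 in DMSO, 0.14 under drug) and library totals (0.057, 0.060), and the one in DMSO with limma-voom (0.053), the replicate block (0.066) and a filter at 5 CPM (0.058). The rarest rows, MT-TG with 4 to 31 and MT-TW with 6 to 42 counts per library, could not show a moderate change at this depth. Without SMARCA4 shRNA drug replicate 2, MT-TD, MT-TR and MT-TT also fell under drug (-0.73, -0.65 and -0.56, adjusted p = 0.0092, 0.021 and 0.035), as did MT-TG without control shRNA drug replicate 3 (-1.29, 0.034) and MT-TE (-0.71, 0.0073) and MT-TS2 (-0.47, 0.032) without control shRNA drug replicate 1. MT-TE also fell under drug without SMARCA4 shRNA DMSO replicate 3 (-0.46, 0.030). In DMSO, MT-TP fell without SMARCA4 shRNA DMSO replicate 3 (-0.36, 0.039). MT-TK stood at -0.31 under drug, with every knockdown library below every control library, and at -0.09 in DMSO. MT-TV stood at -0.10 and 0.14. Neither row passed the threshold in either setting.

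Few genes changed with ibrutinib plus venetoclax. In the main fit members passed at a higher share than all rows did, mostly as lower in knockdown cells. In knockdown cells 1 rose and 8 fell, beside 0.738% of all rows that rose and 0.548% that fell; in control cells 2 rose and 1 fell, beside 0.738% and 0.555%. All drug libraries lay above all DMSO libraries for 1 member and below for 12 in knockdown cells, beside 7.76% and 7.45% of all rows, and for 5 and 2 members in control cells, beside 7.38% and 7.18%. The member medians were -0.30 in knockdown and -0.13 in control cells on the log2 scale, beside 0.00063 and 0.0017 over all rows. The counts were fragile. DESeq2 called 2 members in knockdown cells, 1 higher and 1 lower, and leaving out SMARCA4 shRNA drug replicate 1 or SMARCA4 shRNA DMSO replicate 3 gave 4 and 5. In control cells leaving out control shRNA drug replicate 3 gave 7, and leaving out control shRNA drug replicate 1, the column matched by elimination, or replicate 2, or control shRNA DMSO replicate 1, gave 1.

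MT-CO1 was the member that rose in both cell types. It had 839, 907 and 882 CPM in knockdown cells under drug, against 719.6, 689.5 and 785 CPM in knockdown cells with DMSO. Control cells under drug had 1156, 1226 and 1245 CPM, against 767, 782 and 820.1 CPM in control cells with DMSO. Neither pair overlapped, and the log2 changes were 0.26 ± 0.05 in knockdown cells (adjusted p = 0.0042, edgeR) and 0.61 ± 0.05 in control cells (adjusted p = 2.1e-09). The call in control cells held in all 22 alternatives (0.59 to 0.64), and that in knockdown cells was lost only without SMARCA4 shRNA DMSO replicate 2 (0.22, adjusted p = 0.074). The interaction, the drug effect in knockdown less the drug effect in control cells, was -0.35 ± 0.07 (95% interval -0.51 to -0.20, unadjusted p = 4.1e-05, adjusted p = 0.098 over all rows, edgeR). This difference missed the threshold in edgeR and passed it in DESeq2 (adjusted p = 0.022) and limma-voom (0.040). MT-ND4L, also higher in control cells under drug (306, 308 and 323 CPM, against 259, 256 and 274 CPM with DMSO; 0.25, adjusted p = 0.022), lost its call without control shRNA drug replicate 1 (adjusted p = 0.067), 2 (0.068) or 3 (0.12) or control shRNA DMSO replicate 1 (0.11) or 2 (0.16).

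**Figure D5:**
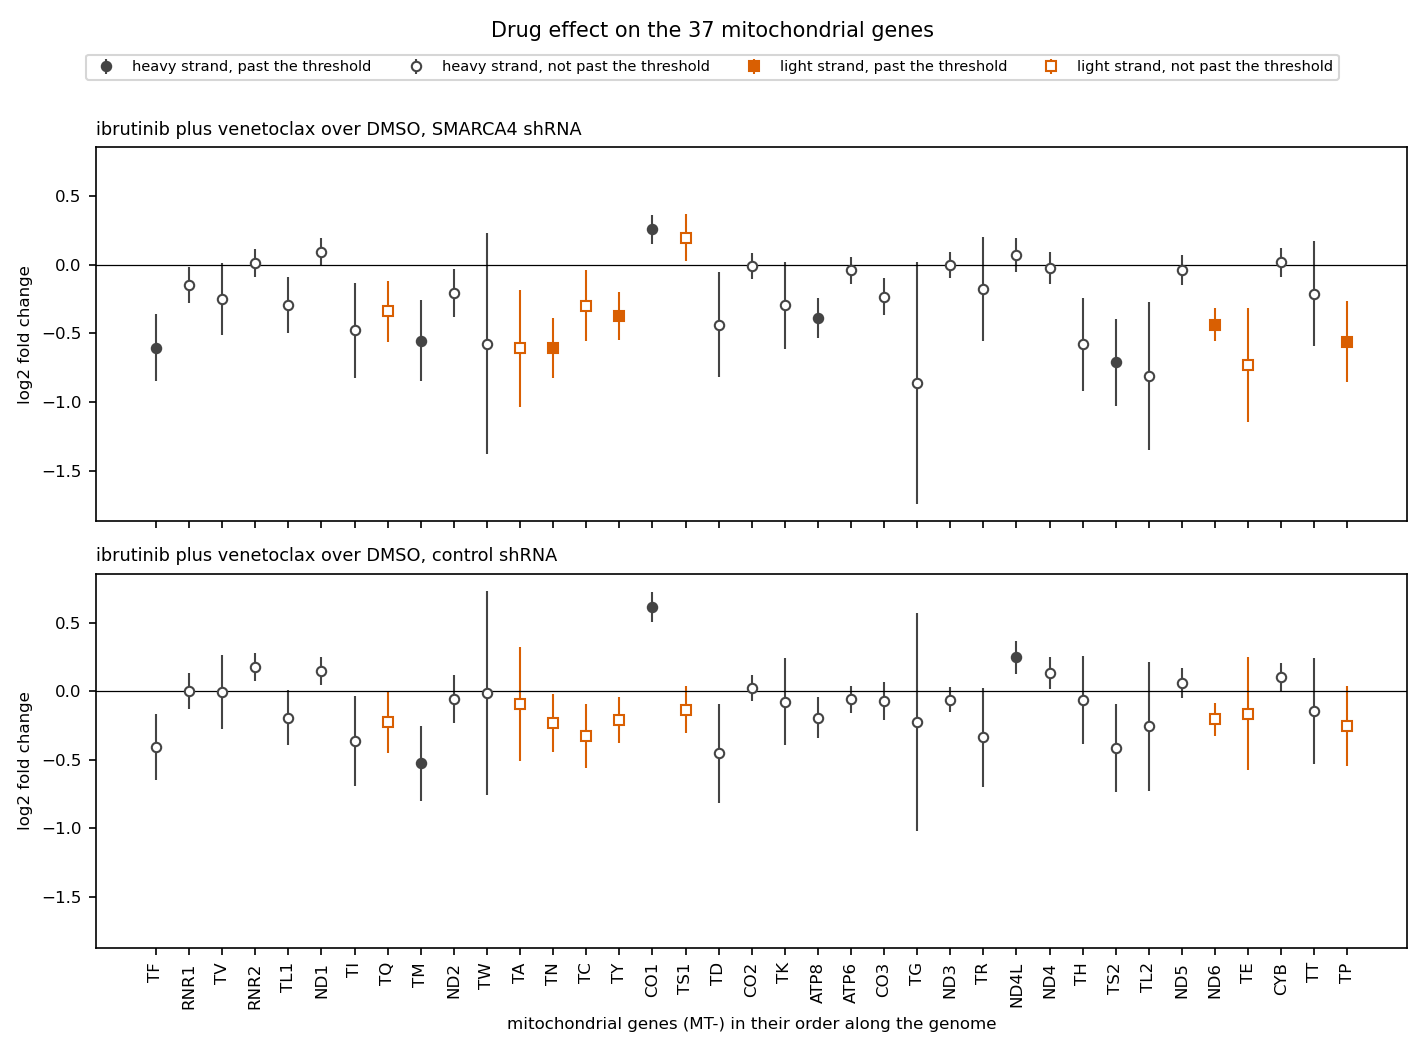
Log2 fold change of ibrutinib plus venetoclax over DMSO (y axis) for the 37 mitochondrial genes in genome order (x axis), in knockdown cells and in control cells; bars are 95% intervals, squares are light-strand genes, filled symbols are past the threshold. MT-CO1 stands apart above zero at 0.26 and 0.61, and most tRNAs lie below zero, with wide intervals.

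MT-ND6 went the other way from MT-CO1 under drug. In knockdown cells it fell by 0.44 ± 0.06 log2 (adjusted p = 2.6e-05, edgeR), with 256, 297 and 280.3 CPM under drug against 352, 364 and 409.9 CPM with DMSO, and it was the only one of the 9 calls in knockdown cells that held in every alternative. In control cells its drug libraries also lay below its DMSO libraries, at -0.20 ± 0.06 (95% interval -0.33 to -0.08, adjusted p = 0.0895), and it passed the threshold there with library totals as scaling (-0.23, adjusted p = 0.034). The difference between the drug effects was -0.23 ± 0.08 (95% interval -0.40 to -0.06, adjusted p = 0.81). MT-ND5 stood at -0.04 and 0.06 and MT-ND1 at 0.10 and 0.15 in knockdown and control cells under drug, none past the threshold.

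Among the tRNAs, MT-TN fell with drug in knockdown cells by 0.61 (adjusted p = 0.00084) and stood at -0.23 in control cells (adjusted p = 0.44). MT-TF, MT-TM, MT-TS2, MT-TY and MT-TP fell in knockdown cells as well (by 0.60, 0.55, 0.71, 0.37 and 0.56), and all 5 calls were lost without SMARCA4 shRNA drug replicate 1 (adjusted p = 0.057, 0.35, 0.12, 0.22 and 0.22) and without SMARCA4 shRNA DMSO replicate 3 (0.066, 0.41, 0.22, 0.071 and 0.47). Further libraries decided some of them: SMARCA4 shRNA drug replicate 3 for MT-TS2 (0.053), MT-TY (0.098) and MT-TP (0.16), SMARCA4 shRNA drug replicate 2 and control shRNA drug replicate 2 for MT-TM (0.074 and 0.056) and MT-TP (0.052 and 0.070), SMARCA4 shRNA DMSO replicate 1 for MT-TM (0.091) and MT-TY (0.058), and SMARCA4 shRNA DMSO replicate 2 for MT-TP (0.059). DESeq2 called none of MT-TN, MT-ATP8 and these 5 (adjusted p = 0.064 to 0.61). MT-TM and MT-TP also missed the threshold with limma-voom (0.059 and 0.063), library totals (0.060 and 0.059) and a filter at 5 CPM (0.074 and 0.076). MT-TM was also the 1 member that fell in control cells (-0.52, adjusted p = 0.043), a call lost without SMARCA4 shRNA DMSO replicate 1 (0.050), control shRNA drug replicate 1 (0.34) or 2 (0.31) or control shRNA DMSO replicate 1 (0.21) or 3 (0.14), and with DESeq2 (0.59) or a filter at 5 CPM (0.072). Of the mRNAs, MT-ATP8 fell in knockdown cells (-0.39, adjusted p = 0.0015), with 2561, 2940.4 and 2335 CPM under drug against 3334, 3245 and 3679 CPM with DMSO. Other members passed when a library was left out, and some of these also with all libraries kept. On all libraries, limma-voom called MT-CO3 as lower in knockdown cells and MT-RNR2 as higher in control cells. In control cells every drug library of MT-RNR2 lay above every DMSO library. With the replicate block, MT-TF fell in control cells, and MT-TA and MT-TE fell in knockdown cells. Without SMARCA4 shRNA drug replicate 2, MT-CO3, MT-ND2, MT-TL1, MT-TQ and MT-TH fell in knockdown cells (-0.34, -0.35, -0.46, -0.51 and -0.88). Without SMARCA4 shRNA DMSO replicate 3, MT-TS1 rose there (0.35). In control cells MT-TF, MT-TN, MT-TC, MT-TS2 and MT-TP fell without control shRNA drug replicate 3 (-0.67, -0.39, -0.47, -0.72 and -0.54), MT-TF also fell without SMARCA4 shRNA DMSO replicate 3 (-0.41, adjusted p = 0.039), and MT-RNR2 rose without SMARCA4 shRNA drug replicate 2 (0.18, adjusted p = 0.049). MT-TE in knockdown cells (-0.73, adjusted p = 0.076) fell without control shRNA drug replicate 1 or 3, SMARCA4 shRNA DMSO replicate 1 or 2 or control shRNA DMSO replicate 3 (0.013 to 0.047).

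For the interaction, 0 members passed in edgeR, beside 0.0238% of all rows (3 rows), 7 members had an unadjusted p under 0.05, beside 674 of the 12602 rows, and DESeq2 and limma-voom each called 1, MT-CO1. The estimate was below zero for 31 of the 37 members, a share that was not counted over all rows. The member median was -0.16, beside -0.0047 over all rows. With library totals as scaling it was -0.10, beside 0.056 over all rows.

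Of the nuclear genes that run mitochondrial transcription, TFAM and MRPL12 were lower in knockdown cells. Of 11 tested transcription genes, these 2 fell with knockdown in both settings and 0 rose, a share near that of all rows that fell (16.3% under drug and 16.2% in DMSO). TFAM, which packages mitochondrial DNA and starts transcription, had 131, 137 and 128 CPM in knockdown against 174, 166 and 144 CPM in control cells under drug, and 124, 132 and 134 CPM in knockdown against 167, 171 and 174 CPM in control cells with DMSO. It fell by 0.29 ± 0.06 and 0.39 ± 0.06 log2 (adjusted p = 0.00051 and 8.7e-06, edgeR), and MRPL12, a mitoribosome protein that also binds POLRMT, fell by 0.53 and 0.51. POLRMT (0.17 and 0.01), TFB2M (0.02 and 0.11), the elongation factor TEFM (-0.04 and -0.01) and the termination factor MTERF (0.06 and 0.07) did not pass under drug or in DMSO.

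Of 19 tested genes of mitochondrial RNA processing, stability and decay, 6 fell and 1 rose with knockdown under drug, and 5 fell and 1 rose in DMSO, beside 16.3% and 14.8% of all rows under drug and 16.2% and 15.1% in DMSO. ELAC2, the nuclease that cuts tRNA 3' ends out of the precursor, had 42.8, 48.1 and 43.0 CPM in knockdown against 50.2, 55.9 and 61.4 CPM in control cells under drug, and 47.9, 48.2 and 49.5 CPM in knockdown against 68.8, 66.2 and 62.8 CPM in control cells with DMSO. It fell by 0.32 ± 0.08 and 0.44 ± 0.07 (adjusted p = 0.0020 and 2.0e-05, edgeR). SLIRP, which binds mitochondrial mRNAs, fell by 0.20 and 0.24, while its partner LRPPRC stood at -0.08 and -0.11. SUPV3L1, a helicase of RNA decay, fell under drug (-0.35, adjusted p = 0.018) and stood at 0.02 in DMSO, and its partner PNPT1 stood at -0.17 and -0.12. TBRG4 and FASTK, of the FASTK family, fell under drug by 0.40 and 0.28, and FASTKD1, of the same family, fell by 0.39 in DMSO. These falls were not confined to 1 setting for TBRG4 and FASTKD1. With DMSO TBRG4 had 80.9–95.1 CPM in knockdown against 103–106 CPM in control cells. Under drug FASTKD1 had 32.8–39.9 CPM in knockdown against 41.7–46.4 CPM in control cells. FASTK overlapped with DMSO (256–280 CPM in knockdown, 278–286 CPM in control cells). REXO2, which degrades short RNAs, rose by 0.40 ± 0.14 and 0.66 ± 0.14 (adjusted p = 0.026 and 0.00027). The poly(A) polymerase MTPAP (-0.14 and -0.18) and the RNA granule protein GRSF1 (-0.03 and -0.11) did not pass.

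Of 15 tested genes of mitochondrial DNA replication and the nucleoid, 4 fell and 2 rose with knockdown under drug and 3 fell in DMSO, beside 16.3% of all rows falling and 14.8% rising under drug and 16.2% falling in DMSO. Among them were the nucleoid-associated ATPase ATAD3A at -0.46 and -0.36 and RNASEH1, which removes RNA from RNA-DNA hybrids, at -0.33 and -0.25. C10orf2, the helicase also named TWNK, fell by 0.26 in DMSO. TK2, a mitochondrial nucleoside kinase, was higher in knockdown than in control cells under drug by 1.12 ± 0.37 (adjusted p = 0.021). Its levels were low, at 2.08–2.51 CPM in knockdown and 0.58–1.68 CPM in control cells under drug. With DMSO it had 1.63–2.04 CPM in knockdown and 0.72–1.30 CPM in control cells, without overlap, and did not pass. Of 8 tested regulators of biogenesis, PPARGC1B, a transcriptional coactivator, had 8.27, 6.21 and 6.47 CPM in knockdown against 15.4, 15.6 and 15.6 CPM in control cells under drug, and 7.98, 6.84 and 7.76 CPM in knockdown against 15.7, 14.2 and 13.1 CPM in control cells with DMSO. It fell by 1.16 ± 0.14 and 0.93 ± 0.13 (adjusted p = 1.2e-07 and 1.4e-06, edgeR). MYC was lower in knockdown than in control cells under drug (-0.33, adjusted p = 0.026). PPARGC1A was not analysed here.

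Nuclear subunits of the respiratory complexes changed with knockdown mostly downward. Over the 5 lists, 21 of 47 tested subunits fell and 1 rose under drug, and 23 fell and 0 rose in DMSO, beside 16.3% of all rows that fell and 14.8% that rose under drug, and 16.2% and 15.1% in DMSO. By complex, the falls under drug and in DMSO were 5 and 5 of 12 in complex I, 2 and 3 of 8 in complex III, 6 and 7 of 11 in complex IV, 7 and 7 of 12 in ATP synthase, and 1 and 1 of 4 in complex II, which has no mitochondrially encoded subunit. NDUFA9 of complex I stood at -0.41 and -0.40, COX7B of complex IV at -0.27 and -0.42, ATP5J of ATP synthase at -0.36 and -0.46, and SDHA of complex II at -0.28 and -0.38. With drug, 0 of the 100 tested nuclear genes of these 9 lists passed in knockdown or in control cells (edgeR), with 6 and 7 at an unadjusted p under 0.05. DESeq2 and limma-voom also called 0 of them in either.

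Nuclear copies of mitochondrial genes gave 16 rows, of which 15 were tested, and took 0.107% to 0.138% of counts. With drug 2 of them rose in knockdown and 4 in control cells, beside 0.738% of all rows in each. In knockdown and control cells 0 fell, beside 0.548% and 0.555% of all rows. The difference from their mitochondrial parents was not tested. MTND2P28, which is 98.4% identical to MT-ND2 over 1042 aligned bases and lies beside a copy of MT-CO1 on chromosome 1, had 34.3, 32.5 and 32.6 CPM in knockdown cells under drug against 23.6, 24.1 and 28.2 CPM with DMSO, and 48.1, 40.7 and 41.2 CPM in control cells under drug against 26, 29 and 28.9 CPM with DMSO. It rose by 0.36 ± 0.09 and 0.64 ± 0.09 (adjusted p = 0.037 and 3.6e-05, edgeR), while MT-ND2 stood at -0.21 and -0.06. MTATP6P1, 98.5% identical to MT-ATP6, rose by 0.28 ± 0.07 and 0.53 ± 0.07 (adjusted p = 0.039 and 1.2e-05), while MT-ATP6 stood at -0.04 and -0.06. With knockdown under drug, 8 of the 15 tested copies fell and 0 rose, beside 16.3% and 14.8% of all rows. They were MTND2P28 (-0.39), MTATP6P1 (-0.31) and MTRNR2L1, L2, L8, L9, L10 and L12, copies of MT-RNR2. In DMSO 1 copy fell, MTRNR2L1 (-0.48), and 1 rose, MTND4P12 (0.44, adjusted p = 0.0090, edgeR), beside 16.2% and 15.1% of all rows. The files do not show whether reads of these rows came from the nuclear or the mitochondrial gene.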

How the data were processed

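RNA of 12 Z-138 libraries was isolated with Qiagen RNeasy and made into Lexogen QuantSeq libraries, per the labels' protocols. HISAT2, HTSeq, hg19 and bcl2fastq (2.17.1.14) stand in the submitters' processing notes, without further versions, annotation or strand setting. As deposited by the authors, the data are 1 table of whole-number gene counts with no normalization, which were tested unchanged. filterByExpr (minimum count 10, minimum total 15) kept 12602 of 13820 rows. Counts were scaled by TMM and fitted in edgeR 4.0.16 (R 4.3.3) with 1 coefficient per group, giving 8 residual and 22.5 prior degrees of freedom and a biological coefficient of variation of 5.69%. Quasi-likelihood F tests were two-sided and adjusted by Benjamini-Hochberg over all rows for 5 comparisons, with a threshold of 0.05. Standard errors and 95% intervals are approximate and cover the spread between libraries. Left out were 1218 low-count rows. DESeq2 1.42.0 and limma 3.58.1 served as alternatives.

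The members and the gene lists were chosen with earlier results of these data known. Every MT- row is named; of the nuclear lists, a fixed set of regulators and up to 3 genes per list with the smallest adjusted p past the threshold. Members were matched to transcripts of GENCODE release 29, which is of another build than hg19 and gave sequences and gene order only. Replicate numbers were not used as pairs, because same-numbered libraries correlated between -0.116 and 0.0821 in their deviations from the group means.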

Additional observations from a re-analysis of the deposited data

How the results depend on the processing

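Drug in knockdown cells gave 9 members and 2 with DESeq2, and the interaction gave 0 and 1 with DESeq2 or limma-voom (MT-CO1 in both). Leaving out 1 library at a time gave 12 to 18 members for knockdown in DMSO, 15 to 25 for knockdown under drug, 1 to 7 for drug in control cells, 4 to 12 for drug in knockdown cells, and 0 for the interaction. Without control shRNA drug replicate 1, matched by elimination, knockdown under drug gave 20, drug in control cells 1 and drug in knockdown cells 10. With the replicate block, the counts for those 5 comparisons were 14, 20, 4, 11 and 0, against 14, 19, 3, 9 and 0 without it. Whether the numbers pair the libraries is not settled. For knockdown in DMSO the same-numbered pairs correlated at 0.0268, 0.0672 and 0.0789. In each comparison between groups some library correlated best with another number. Scaling by the summed mitochondrial counts, chosen after seeing the data, moved the median of all rows by 0.19 log2 for knockdown under drug, by 0.11 for drug in knockdown cells and by 0.13 for the interaction. Under it knockdown under drug gave 3 members higher and 15 lower, beside 3571 higher and 814 lower of all 12602 rows. MT-ND3 turned to 0.18 (adjusted p = 0.042, edgeR) and MT-RNR2 to 0.027 (adjusted p = 0.79). The scaling itself sets the summed level to no change. Calls kept in all alternatives numbered 10 of 14 (knockdown in DMSO), 14 of 19 (knockdown under drug), 1 of 3 (drug in control cells, MT-CO1) and 1 of 9 (drug in knockdown cells, MT-ND6). Depth limits the rare tRNA rows most, MT-TG and MT-TW first.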
